A study of Mus musculus with 8 samples.

Results

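The genes described here encode 10 receptors that give T cells a second signal beside the antigen receptor, or that receive ligands of the TNF superfamily: Tnfrsf9, Tnfrsf4, Tnfrsf18, Cd27, Tnfrsf1b, Tnfrsf1a, Fas, Cd28, Icos and Cd226. They were chosen by symbol from a table of 24976 genes, and all 10 were among the 13073 genes that passed a low-count filter and were tested. Their RNA was measured by bulk sequencing of 8 libraries of CD8 T cells that had infiltrated B16-OVA tumours, grown from mouse melanoma cells carrying ovalbumin. The tumours grew under the skin of Rag2-/- hosts, whose own lymphocyte development is blocked, for 10 days before CD8 T cells were transferred, and the cells were recovered 10 days after transfer. Donors were either WT or mice carrying Cd8Cre, NR4a1flox/flox, NR4a2flox/flox and OT-ITg/+, in which a Cre driven by Cd8 sequences deletes both floxed genes in CD8 T cells and the OT-I receptor recognises ovalbumin. The labels call the latter dKO and do not say whether the WT donors carried OT-I, so donor genotype and receptor specificity cannot be told apart. CD3e+CD8+ cells of the tumours were sorted into PD1+Tim3- and PD1+Tim3+ populations, where PD1 and Tim3 are inhibitory receptors, and each of the 4 groups holds 2 libraries. The sources used here give no ages of the mice.

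Receptors of the TNF family are trimeric surface proteins that recruit TRAF adaptors, or, where they carry a death domain, adaptors such as TRADD and FADD, and thereby start NF-kappaB signalling or caspase activation. CD28 and ICOS bind B7 family ligands and signal through PI3 kinase, while CD226 binds CD155 and competes for it with the inhibitory receptor TIGIT. In activated CD8 T cells several of these receptors are induced after antigen recognition, and agonists of some are used to strengthen T cell responses to tumours.

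The shallowest library, replicate 2 of labelled dKO PD1+Tim3-, held 1944999 counts and the deepest, replicate 2 of WT PD1+Tim3+, 13418762. Levels below are CPM, counts scaled to a common library size after TMM normalization. The libraries labelled dKO did not have less Nr4a1 RNA than WT: Nr4a1 stood at 1331 and 1489 CPM in labelled dKO PD1+Tim3- against 979 and 824 CPM in WT, and at 1194 and 1175 against 803 and 789 CPM in PD1+Tim3+. Nr4a2 stood between 929 and 1034 CPM in all 8 libraries. Counts per gene do not separate the floxed part from the rest, so they do not check the deletion, and the genotype is given below as labelled. Havcr2, which encodes Tim3, stood at 41.8 to 58.2 CPM in the PD1+Tim3+ libraries and at 2.28 to 3.62 CPM in the PD1+Tim3- libraries, a gap that follows the sort. Cd3e stood at 274 to 368 CPM and Cd8a at 854 to 1223 CPM. Cd4 had at most 1 count in any library, and Foxp3 stood at 0.207 to 2.55 CPM. Csf1r, C1qa and Mlana had at most 5 counts each. Other markers of these cell types were not as low. The macrophage and monocyte list summed to 9.45 to 25.5 CPM and the B16 melanoma list to 17.2 to 21.0 CPM. Of the latter, Pmel stood at 0.931 to 3.98 CPM. Pecam1, listed for fibroblasts and endothelium, stood at 20.9 to 36.5 CPM. Other features of the libraries moved with the groups: the share of counts in the rRNA genes Rn45s and Rn18s was 1.605% to 2.37% in PD1+Tim3- and 6.53% to 8.36% in PD1+Tim3+, and the Y-linked Ddx3y stood at 18.9 to 31.4 CPM in WT and 48.8 to 58.0 CPM in the libraries labelled dKO, with Xist at 854 to 955 and 671 to 690 CPM. Their part in the results below was not tested.

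All 10 receptor genes were expressed in both populations and both genotypes. Levels of different genes were set side by side per kilobase of annotated exon, which compares them only if reads cover transcripts along their whole length. The labels do not say how the libraries were prepared. A name given to the deposited counts may refer to reads from the starts of transcripts. For such reads, division by length would place long genes too low. The order of levels and the percentiles therefore hold only if reads cover whole transcripts. Tnfrsf18 had the highest mean over the 4 groups at 122 CPM per kb, followed by Cd28 at 106, Cd27 at 104, Tnfrsf9 at 86.3, Icos at 61.2, Cd226 at 35.3, Tnfrsf4 at 20.04, Tnfrsf1b at 18.4, Fas at 13.2 and Tnfrsf1a at 9.70 CPM per kb. On this scale the first 3 lay at the 94.5th to 95.2nd percentile of tested genes with a known length and Tnfrsf1a at the 60th. The order changed at its top between groups. Cd28 stood first in WT PD1+Tim3- at 109 CPM per kb, though its libraries overlapped those of Cd27 at 105, and Tnfrsf18 stood first in the other 3 groups at 116, 132 and 147 CPM per kb. Cd28 and Cd27 overlapped each other in every group. Tnfrsf9 stood second in WT PD1+Tim3+ at 119 CPM per kb and 4th in the other 3 groups. In WT PD1+Tim3- the libraries of Fas, Tnfrsf4 and Tnfrsf1a overlapped with their neighbours in the order, and in labelled dKO PD1+Tim3- those of Tnfrsf1b and Fas did. Exon lengths are those of an annotation that may differ from the one used for counting.

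**Figure D1:**
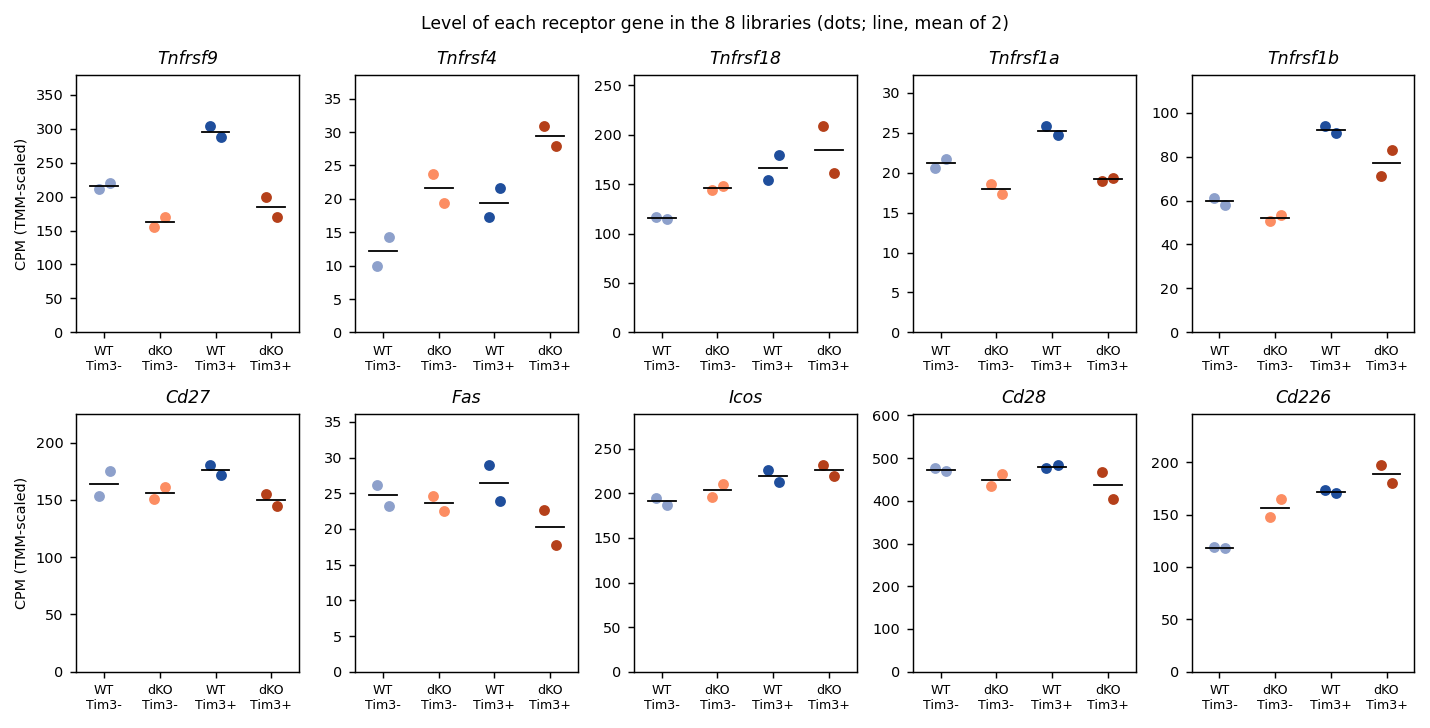
Levels of the 10 receptor genes in CPM (vertical axes, each from 0) in the 4 groups; each dot is a library and each bar the mean of 2. Tnfrsf9 is highest in WT PD1+Tim3+, at 304 and 288 CPM, and Tnfrsf4 is higher in both groups labelled dKO than in the WT group of the same population.

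Between genotypes, the receptor that passed the test was Tnfrsf9, which fell in the libraries labelled dKO among PD1+Tim3+ cells. Between populations of WT cells, Tnfrsf9, Tnfrsf4, Tnfrsf18, Tnfrsf1b and Cd226 rose in PD1+Tim3+ over PD1+Tim3-. Between populations of cells labelled dKO, Tnfrsf1b rose. Cd27, Fas, Icos, Cd28 and Tnfrsf1a passed in none of these 4 comparisons. Each comparison was taken from 1 edgeR quasi-likelihood fit to the 8 libraries, and p-values were adjusted by the Benjamini-Hochberg method over all 13073 genes. The comparisons share libraries with each other, and in bulk RNA fewer cells that express a gene and less RNA per cell cannot be told apart.

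Tnfrsf9, on chromosome 4 at 150914562 to 150946102 on the forward strand (GRCm38), encodes 4-1BB, a receptor without a death domain that is induced on CD8 T cells by antigen and sustains their survival through TRAF1 and TRAF2. It stood at 211 and 219.5 CPM (WT PD1+Tim3-), 155 and 169.5 CPM (labelled dKO PD1+Tim3-), 304 and 288 CPM (WT PD1+Tim3+) and 199 and 170.3 CPM (labelled dKO PD1+Tim3+). Both WT libraries were higher than both libraries labelled dKO in each population, and the groups did not overlap. Among PD1+Tim3+ cells its level was lower by 0.68 ± 0.12 (SE) on the log2 scale in the libraries labelled dKO, a ratio of 0.624 with adjusted p = 0.0303. In PD1+Tim3- cells the log2 fold change was -0.41 ± 0.12, and it did not pass, with adjusted p = 0.448. Between populations Tnfrsf9 rose by 0.46 ± 0.12 in WT, with adjusted p = 0.0209. The difference was 0.19 ± 0.12 in the cells labelled dKO, with adjusted p = 0.379. The interaction, which is the difference between these population differences, was -0.27 ± 0.17 with a 95% interval of -0.64 to 0.10 and adjusted p = 0.653, so the contrast between genotypes was not shown to differ between populations. The PD1+Tim3+ call was lost when a library was left out for 5 of the 8: adjusted p was 0.336 and 0.234 without replicate 1 or 2 of WT PD1+Tim3+, 0.117 without replicate 2 of labelled dKO PD1+Tim3+, and 0.0777 and 0.0748 without replicate 1 or 2 of labelled dKO PD1+Tim3-, with log2 fold changes of -0.80 to -0.57 over all 8 omissions. It was also lost with only the 4 libraries compared in the fit, at adjusted p 0.0851. The population call in WT was lost without any one of the 4 WT libraries, at adjusted p 0.0537 to 0.15, and by DESeq2 at 0.061.

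RefSeq (GRCm38.p6) gives Tnfrsf9 more than one start. The 250 bases before 2 of them are shown because Tnfrsf9 is the receptor that passed between genotypes, and because NF-kappaB, AP-1, NFAT and NR4A factors are the ones best known downstream of T cell activation. Capitals mark letter matches on either strand.
Tnfrsf9 start 1, chr4:150919905-150920154, forward strand: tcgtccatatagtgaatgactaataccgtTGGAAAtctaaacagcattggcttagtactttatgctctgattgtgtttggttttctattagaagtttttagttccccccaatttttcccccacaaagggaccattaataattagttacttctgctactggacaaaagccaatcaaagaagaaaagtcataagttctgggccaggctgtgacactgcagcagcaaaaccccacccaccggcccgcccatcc
Tnfrsf9 start 2, chr4:150927749-150927998, forward strand: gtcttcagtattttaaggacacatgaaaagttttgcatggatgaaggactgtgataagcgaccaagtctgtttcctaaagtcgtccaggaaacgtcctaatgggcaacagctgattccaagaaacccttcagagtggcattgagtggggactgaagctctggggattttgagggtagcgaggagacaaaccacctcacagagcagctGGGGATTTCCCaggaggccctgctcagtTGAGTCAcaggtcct
The letters searched were GGGNNNNNCC for kappaB, TGANTCA for AP-1, AAAGGTCA for the NR4A element NBRE and TGGAAA for NFAT. The capitals before start 1 are an NFAT match whose first base lies 221 bases before the start. Before start 2 they are a pair of overlapping kappaB matches that begin 43 and 42 bases before the start, and an AP-1 match, TGAGTCA, that begins 15 bases before it. Among 32851 promoter windows of the same length, 45.8% hold a kappaB match, 6.75% an AP-1 match, 18.6% an NFAT match and 1.34% an NBRE match. No NBRE letters were found in the 8 windows searched, which belong to 7 of the 10 receptors. Windows of Icos, Cd28 and Cd226 were not searched, so nothing is said of theirs. These are matches of letters alone, and binding was not measured.

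Tnfrsf4 and Tnfrsf18 lie next to each other on chromosome 4, on the same strand and 9.6 kb apart with no coding gene between them. Tnfrsf4, at 156013843 to 156016612, encodes OX40, which prolongs the survival of activated T cells. Its levels were 9.95 and 14.3 CPM (WT PD1+Tim3-), 23.7 and 19.4 CPM (labelled dKO PD1+Tim3-), 17.3 and 21.6 CPM (WT PD1+Tim3+) and 30.9 and 27.9 CPM (labelled dKO PD1+Tim3+). The libraries labelled dKO were higher in each population without overlap, which is the opposite order to that of Tnfrsf9. These differences did not pass: the log2 fold change was 0.91 ± 0.21 in PD1+Tim3- with adjusted p = 0.236 and 0.57 ± 0.17 in PD1+Tim3+ with adjusted p = 0.206. Their unadjusted p-values in edgeR were 0.00135 and 0.00685, and without the low-count filter both were called, with adjusted p of 0.00247 and 0.0407. That setting also raised the genes called in all, from 6 to 232 in PD1+Tim3- and from 82 to 486 in PD1+Tim3+. Tnfrsf4 rested on few reads: 37 counts in the shallowest library and 302 in the deepest. Between populations it rose by 0.74 ± 0.19 on the log2 scale in WT cells, with adjusted p = 0.0230, and differed by 0.40 ± 0.19 in the cells labelled dKO, with adjusted p = 0.235. Its call in WT was lost without replicate 1 of WT PD1+Tim3- or replicate 1 or 2 of WT PD1+Tim3+, at adjusted p 0.258, 0.059 and 0.234, and by DESeq2 at 0.0842.

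Tnfrsf18, at 156026164 to 156028895, encodes GITR, a costimulatory receptor abundant on regulatory and activated T cells. It stood at 117 and 114 CPM (WT PD1+Tim3-), 144 and 148 CPM (labelled dKO PD1+Tim3-), 154 and 179 CPM (WT PD1+Tim3+) and 209 and 161 CPM (labelled dKO PD1+Tim3+). Groups of the 2 genotypes did not overlap in PD1+Tim3- and overlapped in PD1+Tim3+. Between genotypes neither difference passed, with log2 fold changes of 0.34 ± 0.14 (adjusted p = 0.576) in PD1+Tim3- and 0.15 ± 0.13 (adjusted p = 0.737) in PD1+Tim3+. Between populations Tnfrsf18 rose by 0.53 ± 0.14 in WT, with adjusted p = 0.0211, a call that was lost without any one of the 4 WT libraries at adjusted p 0.0668 to 0.188. In the cells labelled dKO the difference was 0.34 ± 0.14, with adjusted p = 0.159. This value depended on the labelled dKO PD1+Tim3+ libraries: it was 0.15 without replicate 1, with adjusted p = 0.606, and 0.52 without replicate 2, with adjusted p = 0.0253. Tnfrsf18 shares 321 exon bases with Gm16008 on the opposite strand, and since the strand setting of the counting is not known its counts are uncertain to that extent. Because OX40, GITR and ICOS are abundant on regulatory T cells, the markers of CD4 and regulatory T cells were summed: they reached 585 to 592 CPM in WT PD1+Tim3-, 530.3 to 549.5 in labelled dKO PD1+Tim3-, 647 to 669.6 in WT PD1+Tim3+ and 593 to 606 in labelled dKO PD1+Tim3+. Most of that sum was Ctla4, at 354 to 472 CPM, which activated CD8 T cells also express. Of the defining markers, Cd4 was at 0 in all 4 PD1+Tim3+ libraries, and Foxp3 was highest in WT PD1+Tim3+ at 2.55 and 2.29 CPM.

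Tnfrsf1b encodes TNFR2, the TNF receptor without a death domain, which recruits TRAF2 and costimulates activated T cells. It lies on chromosome 4 at 145213463 to 145246870 on the reverse strand. Its levels were 61.3 and 57.8 CPM (WT PD1+Tim3-), 50.9 and 53.5 CPM (labelled dKO PD1+Tim3-), 93.9 and 90.8 CPM (WT PD1+Tim3+) and 71.1 and 83.1 CPM (labelled dKO PD1+Tim3+). Every PD1+Tim3+ library stood above every PD1+Tim3- library, in both genotypes. Tnfrsf1b was the one receptor of the 10 that rose between populations in both genotypes, by 0.63 ± 0.11 on the log2 scale in WT (1.55-fold, adjusted p = 0.00407) and by 0.57 ± 0.12 in the cells labelled dKO (adjusted p = 0.0157). The WT call was lost without replicate 1 of WT PD1+Tim3+, at adjusted p 0.0502, and the other was lost without replicate 1 or 2 of labelled dKO PD1+Tim3-, at adjusted p 0.137 and 0.0762, and by DESeq2 at 0.0526. Between genotypes the log2 fold change was -0.20 ± 0.12 in PD1+Tim3- and -0.26 ± 0.11 in PD1+Tim3+, without overlap of the libraries and with adjusted p of 0.704 and 0.357. The 250 bases before its RefSeq start are shown because Tnfrsf1b had the smallest adjusted p among the receptors.
Tnfrsf1b, chr4:145246871-145247120, reverse strand: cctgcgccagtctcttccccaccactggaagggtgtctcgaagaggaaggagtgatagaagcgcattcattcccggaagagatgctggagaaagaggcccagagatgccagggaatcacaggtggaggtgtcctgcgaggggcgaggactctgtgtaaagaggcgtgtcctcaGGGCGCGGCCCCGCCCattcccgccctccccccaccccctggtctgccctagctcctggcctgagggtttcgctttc
The capitals cover 3 overlapping kappaB matches in a run of G and C, which begin 77, 76 and 71 bases before the start. The windows of Cd27, Tnfrsf1a and Fas also held kappaB matches, that of Fas an AP-1 match, and that of Tnfrsf4 an NFAT match, while that of Tnfrsf18 held none of these motifs.

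Tnfrsf1a, on chromosome 6 at 125349362 to 125362484 on the forward strand, encodes TNFR1, the death domain receptor through which TNF activates NF-kappaB or, when that is blocked, cell death. It stood at 20.6 and 21.8 CPM (WT PD1+Tim3-), 18.6 and 17.3 CPM (labelled dKO PD1+Tim3-), 25.8 and 24.7 CPM (WT PD1+Tim3+) and 19.0 and 19.4 CPM (labelled dKO PD1+Tim3+). The libraries labelled dKO were lower than WT in each population without overlap. The log2 fold changes were -0.22 ± 0.15 in PD1+Tim3- and -0.39 ± 0.13 in PD1+Tim3+, and neither passed, with adjusted p of 0.758 and 0.229. Between populations the differences were 0.25 ± 0.12 in WT and 0.08 ± 0.15 in the cells labelled dKO, with adjusted p of 0.189 and 0.847. Its counts, from 33 to 346 per library, were the lowest of the 10 in the shallowest library.

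Fas, on chromosome 19 at 34290666 to 34327772, encodes the death receptor that binds Fas ligand and activates caspase 8 through FADD. Its levels were 26.2 and 23.2 CPM (WT PD1+Tim3-), 24.6 and 22.6 CPM (labelled dKO PD1+Tim3-), 28.9 and 23.9 CPM (WT PD1+Tim3+) and 22.7 and 17.7 CPM (labelled dKO PD1+Tim3+). Only in PD1+Tim3+ cells did the genotypes not overlap, with a log2 fold change of -0.36 ± 0.16 and adjusted p = 0.388. In PD1+Tim3- cells it was -0.05 ± 0.17, with a 95% interval of -0.43 to 0.33. Between populations Fas differed by 0.07 ± 0.15 in WT and -0.24 ± 0.18 in the cells labelled dKO, with adjusted p of 0.797 and 0.460.

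Cd27, on chromosome 6 at 125232622 to 125237010 on the reverse strand, encodes the receptor for CD70, which is present on naive and memory precursor T cells and supports survival. It stood at 153 and 175 CPM (WT PD1+Tim3-), 151 and 161 CPM (labelled dKO PD1+Tim3-), 180.1 and 172 CPM (WT PD1+Tim3+) and 155 and 144 CPM (labelled dKO PD1+Tim3+). In PD1+Tim3+ cells both libraries labelled dKO were below both WT libraries, and in PD1+Tim3- cells the genotypes overlapped. The log2 fold changes between genotypes were -0.23 ± 0.11 and -0.08 ± 0.11, with adjusted p of 0.443 and 0.899. Between populations they were 0.10 ± 0.11 in WT and -0.06 ± 0.11 in the cells labelled dKO, with adjusted p of 0.568 and 0.828. With offsets for transcript length the WT differences of Cd27 and Fas were -0.03 and -0.08, so their direction depended on the scaling. Cd27 and Tnfrsf1a lie 112.4 kb apart on chromosome 6 with Ltbr, the lymphotoxin beta receptor gene, between them, and Ltbr had at most 1 count in any library.

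Of the immunoglobulin family receptors, Cd28 encodes the B7 receptor required for full T cell activation and Icos its inducible relative. They lie on chromosome 1 on the forward strand, Cd28 at 60716800 to 60773359 and Icos at 60977927 to 61000320, with Ctla4 between them, 113.6 kb from Cd28 and 62.1 kb from Icos. Cd28 stood at 476 and 471 CPM (WT PD1+Tim3-), 434 and 463 CPM (labelled dKO PD1+Tim3-), 478 and 483 CPM (WT PD1+Tim3+) and 468 and 404 CPM (labelled dKO PD1+Tim3+). Its spread over the 8 libraries, 404 to 483 CPM, was narrow, and the lowest value was replicate 2 of labelled dKO PD1+Tim3+. No comparison of Cd28 passed. The log2 difference between populations in WT was 0.02 ± 0.12 with a 95% interval of -0.24 to 0.28, and that between genotypes was -0.08 ± 0.12 in PD1+Tim3- (-0.34 to 0.18) and -0.14 ± 0.12 in PD1+Tim3+ (-0.40 to 0.12). These intervals bound the differences and do not show that the groups are alike.

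Icos stood at 195 and 187 CPM (WT PD1+Tim3-), 196 and 211 CPM (labelled dKO PD1+Tim3-), 226 and 212 CPM (WT PD1+Tim3+) and 231 and 220.0 CPM (labelled dKO PD1+Tim3+). PD1+Tim3+ libraries were above PD1+Tim3- libraries of the same genotype without overlap, by 0.20 ± 0.11 on the log2 scale in WT and 0.15 ± 0.11 in the cells labelled dKO, but neither difference passed, with adjusted p of 0.241 and 0.447. Between genotypes the log2 fold change was 0.09 ± 0.11 in PD1+Tim3- and 0.04 ± 0.11 in PD1+Tim3+, with 95% intervals of -0.15 to 0.33 and -0.19 to 0.28.

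Cd226, on chromosome 18, encodes DNAM-1, an activating receptor for CD155 on CD8 T cells and NK cells. It stood at 119.0 and 118 CPM (WT PD1+Tim3-), 148 and 165 CPM (labelled dKO PD1+Tim3-), 173 and 171 CPM (WT PD1+Tim3+) and 197 and 180.1 CPM (labelled dKO PD1+Tim3+). The lowest 2 values were those of WT PD1+Tim3-, and the libraries labelled dKO were above WT in each population. Between populations Cd226 rose by 0.54 ± 0.11 on the log2 scale in WT, with adjusted p = 0.00722, and differed by 0.28 ± 0.11 in the cells labelled dKO, with adjusted p = 0.147. The WT call was lost without replicate 1 of WT PD1+Tim3- (adjusted p 0.0561) and without replicate 1 or 2 of WT PD1+Tim3+ (0.074 and 0.0609). Between genotypes the log2 fold change was 0.39 ± 0.11 in PD1+Tim3- and 0.13 ± 0.11 in PD1+Tim3+, and neither passed, with adjusted p of 0.413 and 0.691. Markers of NK cells, which also express Cd226, summed to 85.2 to 85.4 CPM in WT PD1+Tim3-, 48.3 to 50.3 in labelled dKO PD1+Tim3-, 124 to 134 in WT PD1+Tim3+ and 72.0 to 76.3 in labelled dKO PD1+Tim3+. Of the defining NK genes, Ncr1 was at 0 in 7 of the 8 libraries and had 3 counts in the other, while Klrb1c stood at 5.97 to 14.3 CPM. Most of each sum therefore came from listed genes other than the defining ones, such as Eomes and Fcer1g, whose levels are not given here. Between populations the summed NK markers were higher in PD1+Tim3+ in both genotypes, as was Cd226, and Klrb1c went from 5.97 and 7.26 to 14.3 and 12.1 CPM in WT. Between genotypes the sum was lower in the libraries labelled dKO. The part of NK cells in the rise of Cd226 was not tested.

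**Figure D2:**
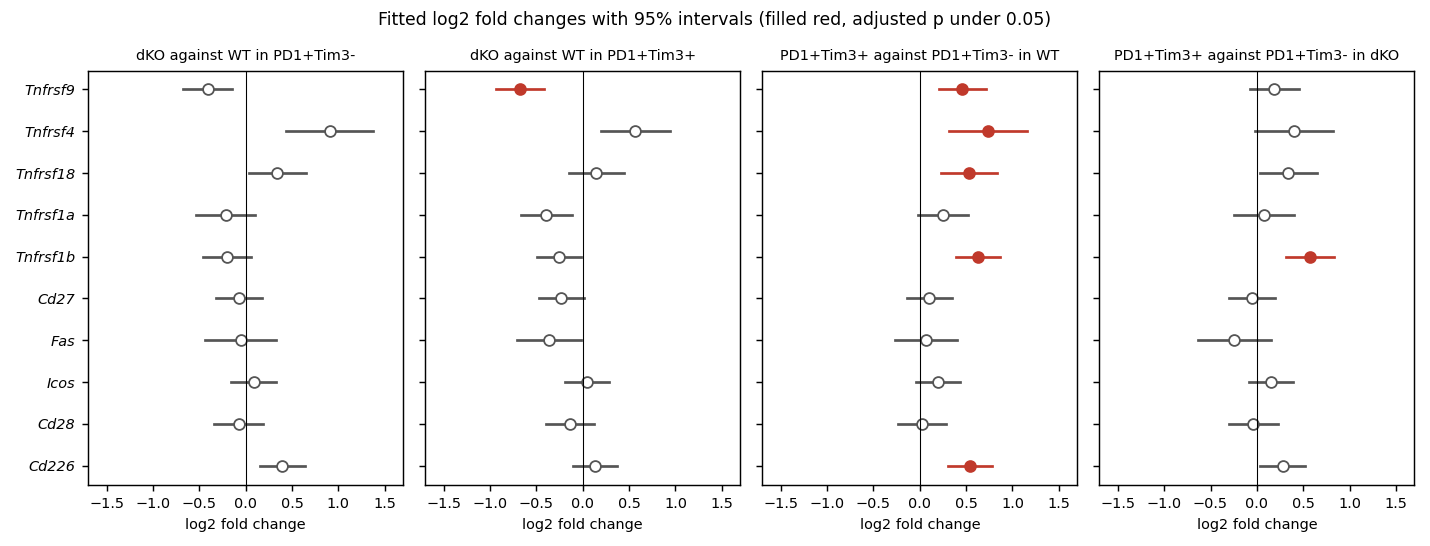
Log2 fold changes of the 10 receptor genes (horizontal axis) with 95% intervals (lines) in the comparisons of genotypes and of populations; filled marks passed at an adjusted p under 0.05. Tnfrsf9 at -0.68 among PD1+Tim3+ cells is the marked difference between genotypes, and 5 receptors in WT and 1 in the cells labelled dKO are marked between populations.

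Across the 10 genes, the comparison of genotypes in PD1+Tim3- cells gave 0 calls by edgeR, against 0.0459% of all tested genes, and 0 by DESeq2 and by limma-voom. At an unadjusted p under 0.05 it gave 4 of the 10, with Tnfrsf4, Tnfrsf18 and Cd226 higher and Tnfrsf9 lower, where 8.27% of all genes did. Libraries of the genotypes did not overlap for 8 of the 10, 4 in each direction, where 41.3% of all genes did not. The median log2 fold change was -0.07, against -0.01 over all tested genes. In PD1+Tim3+ cells 1 of the 10 was called, against 0.627% of all genes, or 0.367% called lower. At an unadjusted p under 0.05 there were 5 of the 10, 1 higher and 4 lower, where 12% of all genes passed. Libraries did not overlap for 2 receptors that were higher in the cells labelled dKO, Tnfrsf4 and Cd226, and for 6 that were lower, where 41.4% of all genes did not overlap. The median was -0.19, against 0.01 over all genes.

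Between populations 5 of the 10 receptors rose in WT, where 17% of all tested genes were called and 8.25% were called higher. All 10 fold changes were positive, as were 51.2% of those of all genes, and the libraries did not overlap for 8 of them, all except Cd27 and Fas, where 63% of all genes did not overlap. The median was 0.36, against 0.01 over all genes. In the cells labelled dKO 1 of the 10 rose, where 9.93% of all genes were called and 5.21% were called higher. There 7 fold changes were positive, as were 51% of those of all genes, and each of the 7 was without overlap of its libraries, where 50.9% of all genes did not overlap. The median was 0.17, against 0.01. The share of rRNA counts, given above, was higher in every PD1+Tim3+ library. The interaction gave 0 calls among the 10 and 0 among all 13073 genes by edgeR, 0% of the tested genes, and at an unadjusted p under 0.05 it gave 0 of the 10 and 1320 genes in all, or 10.1%. By DESeq2 it gave 0 of the 10 and 109 genes in all, and by limma-voom 0 of both. All 10 interaction estimates were negative, from -0.34 to -0.04, as were 49.6% of those of all genes, so the smaller count in the cells labelled dKO was not shown to be a smaller difference for any receptor.

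The ligands of these receptors were examined next, since CD8 T cells make several of them. Of 13 ligand genes listed, 10 were tested. Between genotypes Tnf alone passed, in PD1+Tim3+ cells, where 0.627% of all tested genes were called. Its levels were 22.7 and 27.4 CPM (WT PD1+Tim3-), 44.3 and 44.1 CPM (labelled dKO PD1+Tim3-), 39.8 and 38.3 CPM (WT PD1+Tim3+) and 64.0 and 61.3 CPM (labelled dKO PD1+Tim3+). The libraries labelled dKO were higher in each population without overlap, by 0.83 ± 0.13 on the log2 scale in PD1+Tim3- (adjusted p = 0.0705) and by 0.69 ± 0.11 in PD1+Tim3+ (adjusted p = 0.0208). The call in PD1+Tim3+ was lost without replicate 1 or 2 of WT PD1+Tim3+ (adjusted p 0.188 and 0.318), without replicate 1 or 2 of labelled dKO PD1+Tim3- (0.0511 and 0.0542), by DESeq2 (0.0639), and with only the 4 libraries compared in the fit (0.056). In PD1+Tim3- Tnf was called without the low-count filter (adjusted p 0.000318) and with robust empirical Bayes (0.0169). Genes called in all went from 6 to 232 and to 56 under these settings. Without replicate 1 or 2 of labelled dKO PD1+Tim3+ the log2 fold change of Tnf was 0.83 in each.

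Between populations 5 of the 10 tested ligands rose in WT and 4 in the cells labelled dKO, with medians of 0.56 and 0.66. Of all tested genes 17% were called in WT, 8.25% of them all higher. In the cells labelled dKO 9.93% were called and 5.21% called higher. The median over all genes was 0.01 in each. Fasl, the Fas ligand used by cytotoxic T cells, stood at 22.5 and 26.9 CPM (WT PD1+Tim3-), 18.1 and 18.4 CPM (labelled dKO PD1+Tim3-), 84.0 and 83.2 CPM (WT PD1+Tim3+) and 68.5 and 68.7 CPM (labelled dKO PD1+Tim3+). It rose by 1.77 ± 0.11 on the log2 scale in WT and 1.91 ± 0.13 in the cells labelled dKO, with adjusted p of 1.31e-05 and 1.73e-05, while its receptor Fas passed in neither. Tnf rose by 0.65 ± 0.12 in WT and 0.50 ± 0.12 in the cells labelled dKO, with adjusted p of 0.00526 and 0.0262. Tnfsf4, the ligand of OX40, had 19 and 10 counts (WT PD1+Tim3-), 7 and 0 counts (labelled dKO PD1+Tim3-), 61 and 115 counts (WT PD1+Tim3+) and 34 and 27 counts (labelled dKO PD1+Tim3+). Its rise in WT was 1.89 ± 0.34, with adjusted p = 0.00482. In the cells labelled dKO it passed too (adjusted p = 0.0163), but the size depends on a group with 7 counts in all and is not given here. Cd80, a B7 ligand of CD28 and CTLA-4 best known on antigen presenting cells, rose by 1.14 ± 0.26 in WT, with adjusted p = 0.0122, and by 2.02 ± 0.37 in the cells labelled dKO, with adjusted p = 0.00938. Its levels were 1.45 to 3.98 CPM in PD1+Tim3- and 7.02 to 9.35 CPM in PD1+Tim3+. Cd80 had 28 and 16 counts in WT PD1+Tim3- and 8 and 5 in labelled dKO PD1+Tim3-, so the sizes of its rises are uncertain. Dendritic cell markers, which include MHC class II genes, summed to 32.8 to 40.9 CPM in PD1+Tim3- and 70.8 to 83.4 CPM in PD1+Tim3+, while the defining Flt3 stood at 0.525 to 1.56 and Zbtb46 at 0.829 to 2.23 CPM. The fifth ligand that rose in WT was Ltb, a lymphotoxin subunit, with 0.52 ± 0.12 and adjusted p = 0.0116, which was lost without replicate 1 of WT PD1+Tim3- (0.105) or replicate 1 or 2 of WT PD1+Tim3+ (0.0883 and 0.0965). The counts and medians of ligands given above include Ltb, although the lymphotoxin beta receptor gene, Ltbr, is not among the receptors described here.

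**Figure D3:**
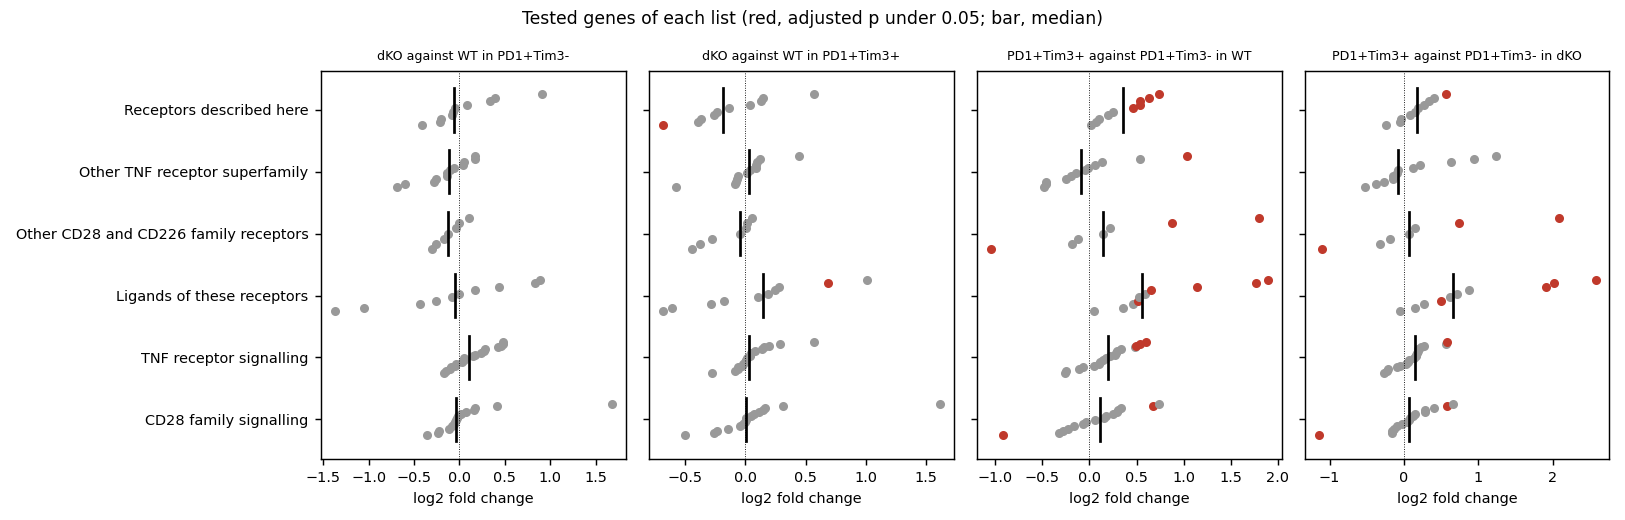
Log2 fold changes (horizontal axes) of tested genes in the receptor group and the 5 lists of related genes, in 4 comparisons; each dot is a gene, red dots passed at an adjusted p under 0.05, and black bars are medians. The ligand list, which includes Ltb, has the highest medians between populations, 0.56 in WT and 0.66 in the cells labelled dKO.

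Of the other receptors of the TNF family, 12 of 20 were tested. In WT 1 of these, Tnfrsf25 (DR3), rose between populations, by 1.03 ± 0.30 with adjusted p = 0.0360, and the median of the 12 was -0.09 against 0.36 for the 10 receptors described here. Tnfrsf25 rested on few reads, with 18 and 19 counts in WT PD1+Tim3-. None of the 12 passed between genotypes or in the cells labelled dKO by edgeR, DESeq2 or limma-voom. At an unadjusted p under 0.05 in edgeR there were 0 of 12 between genotypes in either population. Of all tested genes 8.27% were under that level in PD1+Tim3- and 12% in PD1+Tim3+. Between populations labelled dKO there were 3 of 12. The share of all tested genes at that level is not given here. It was at least the 9.93% called after adjustment, so the 3 are not read as a result about these receptors. The call of Tnfrsf25 was lost without replicate 1 of WT PD1+Tim3- (adjusted p 0.33) or replicate 1 or 2 of WT PD1+Tim3+ (0.158 and 0.0963), by DESeq2 (0.132), and with offsets for transcript length (0.0618). Among 7 other receptors of the CD28 and CD226 families, Tigit and Pvrig, inhibitory receptors of the CD226 axis, rose and Btla, an inhibitory receptor that binds HVEM, fell between populations in both genotypes. Of all tested genes 17% were called between populations in WT and 9.93% in the cells labelled dKO. Pvrig rested on few reads, with 15 and 20 counts in WT PD1+Tim3- and 9 and 9 in labelled dKO PD1+Tim3-. Pvrig had adjusted p of 0.00739 in WT and 0.0193 in the cells labelled dKO, lost in WT without replicate 1 of PD1+Tim3- or replicate 2 of PD1+Tim3+ (0.0984 and 0.0675) and in the cells labelled dKO without replicate 1 of either population (0.324 and 0.0552). Btla stood at 88.7 and 79.2 CPM (WT PD1+Tim3-), 87.4 and 94.5 CPM (labelled dKO PD1+Tim3-), 41.3 and 40.2 CPM (WT PD1+Tim3+) and 35.4 and 49.1 CPM (labelled dKO PD1+Tim3+). It fell by 1.05 ± 0.14 on the log2 scale in WT and by 1.10 ± 0.15 in the cells labelled dKO, with adjusted p of 0.00141 and 0.00171. No gene of these 7 passed between genotypes by edgeR, DESeq2 or limma-voom, with 1 at an unadjusted p under 0.05 in PD1+Tim3- and 3 in PD1+Tim3+, where 8.27% and 12% of all tested genes were.

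Tigit and Cd226 bind the same ligand with opposite effect, so their RNAs were set side by side within each library. Tigit stood at 100.5 and 104 CPM (WT PD1+Tim3-), 76.2 and 90.8 CPM (labelled dKO PD1+Tim3-), 179.9 and 194 CPM (WT PD1+Tim3+) and 152 and 123 CPM (labelled dKO PD1+Tim3+). It rose between populations by 0.87 ± 0.13 in WT and 0.74 ± 0.14 in the cells labelled dKO, with adjusted p of 0.00224 and 0.00938, the latter lost without replicate 1 of labelled dKO PD1+Tim3- at 0.113. Between genotypes it did not pass, at -0.31 ± 0.14 in PD1+Tim3- and -0.44 ± 0.13 in PD1+Tim3+, with adjusted p of 0.602 and 0.180. In PD1+Tim3+ it was called lower without the low-count filter (-0.47, adjusted p = 0.0334), a setting that called 486 genes in all against 82. Without replicate 1 of labelled dKO PD1+Tim3+ its log2 fold change was -0.60. The ratio of Cd226 to Tigit CPM was 1.184 and 1.13 (WT PD1+Tim3-), 1.94 and 1.82 (labelled dKO PD1+Tim3-), 0.962 and 0.881 (WT PD1+Tim3+) and 1.30 and 1.46 (labelled dKO PD1+Tim3+). It was higher in the libraries labelled dKO in both populations and lower in PD1+Tim3+ in both genotypes, without overlap. The ratio of Cd28 to Ctla4, which share the B7 ligands, was 1.21 and 1.20 (WT PD1+Tim3-), 1.23 and 1.27 (labelled dKO PD1+Tim3-), 1.01 and 1.09 (WT PD1+Tim3+) and 1.20 and 1.11 (labelled dKO PD1+Tim3+). It varied less than that of Cd226 to Tigit. These ratios were chosen after the levels had been seen and were not tested, and their absolute values depend on the lengths of the genes.

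**Figure D4:**
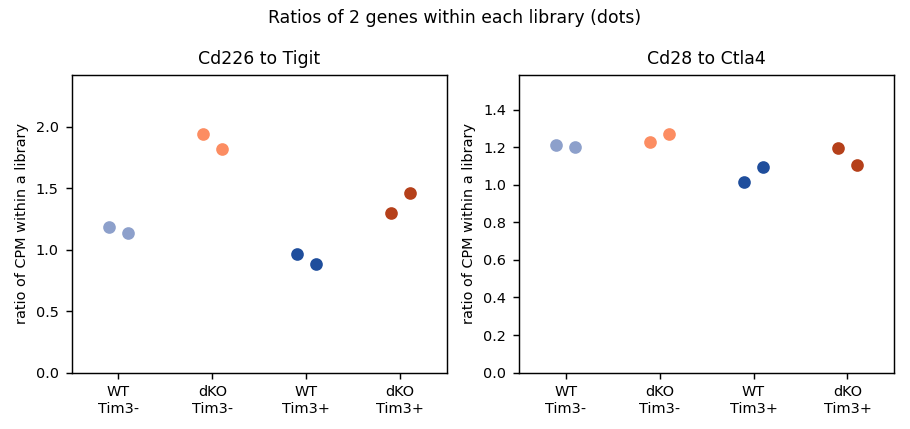
Ratio of Cd226 to Tigit (left) and of Cd28 to Ctla4 (right) CPM within each library (vertical axes, from 0) in the 4 groups; each dot is a library. Cd226 to Tigit reaches 1.94 and 1.82 in labelled dKO PD1+Tim3- and is below 1 in WT PD1+Tim3+ alone, at 0.962 and 0.881.

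Downstream of the TNF receptors, 18 adaptors, kinases and NF-kappaB regulators were tested. Between genotypes 0 passed by edgeR in either population, with 3 at an unadjusted p under 0.05 in PD1+Tim3- and 1 in PD1+Tim3+, where 8.27% and 12% of all tested genes were. By DESeq2 0 passed, and by limma-voom 0 and 1, which called Nfkbia higher in PD1+Tim3+. Nfkbia, which encodes the NF-kappaB inhibitor that NF-kappaB itself induces, stood at 488 and 521 CPM (WT PD1+Tim3-), 689 and 721 CPM (labelled dKO PD1+Tim3-), 675 and 739 CPM (WT PD1+Tim3+) and 1150 and 949 CPM (labelled dKO PD1+Tim3+). Between populations it rose by 0.49 ± 0.13 in WT and 0.57 ± 0.13 in the cells labelled dKO, with adjusted p of 0.0252 and 0.0223. Siva1 and Tradd rose in WT too, with adjusted p of 0.0282 and 0.0470, and the list medians were 0.20 in WT and 0.15 in the cells labelled dKO. That made 3 of the 18 called in WT and 1 in the cells labelled dKO, where 17% and 9.93% of all tested genes were called. Siva1 encodes a CD27-binding protein and Tradd the TNFR1 adaptor. These calls were lost under several alternatives. In WT that of Nfkbia was lost without any one of the 4 WT libraries (adjusted p 0.0516 to 0.198) and with offsets for transcript length (log2 rise 0.35, 0.0549), that of Siva1 without replicate 2 of PD1+Tim3- or replicate 1 or 2 of PD1+Tim3+ (0.157, 0.15 and 0.0945), and that of Tradd without replicate 1 of WT PD1+Tim3- (0.428), either replicate of WT PD1+Tim3+ (0.2 and 0.126) or either of labelled dKO PD1+Tim3- (0.0628 and 0.0619), with only the 4 libraries compared (0.0547) and with offsets for transcript length (0.105). DESeq2 called Nfkbia and not Siva1 or Tradd (0.154 and 0.208). In the cells labelled dKO the call of Nfkbia was lost without either replicate of PD1+Tim3- (0.145 and 0.115), replicate 1 of PD1+Tim3+ (0.0846) or either replicate of WT PD1+Tim3+ (0.0521 and 0.052), and with only the 4 libraries compared (0.0589). Nfkbia, Siva1, Tradd, Tnfrsf25, Pvrig and Ltb lie outside the rule for named genes and were named after their values were seen.

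Of 16 genes that act downstream of CD28, 0 passed between genotypes by edgeR, with 4 at an unadjusted p under 0.05 in PD1+Tim3- and 3 in PD1+Tim3+, where 8.27% and 12% of all tested genes were. By DESeq2 0 passed, and by limma-voom 0 and 1, which called Pik3r1 lower in PD1+Tim3+. Between populations Bcl2l1 rose and Pik3ip1 fell in both genotypes, where 17% of all tested genes were called in WT and 9.93% in the cells labelled dKO. Bcl2l1 encodes the survival protein BCL-XL, a classical product of CD28 signals, and stood at 21.8 and 24.7 CPM (WT PD1+Tim3-), 29.5 and 33.1 CPM (labelled dKO PD1+Tim3-), 38.3 and 35.8 CPM (WT PD1+Tim3+) and 45.0 and 46.7 CPM (labelled dKO PD1+Tim3+). Its log2 rise was 0.68 ± 0.12 in WT and 0.58 ± 0.13 in the cells labelled dKO, with adjusted p of 0.00464 and 0.0206. Pik3ip1, an inhibitor of PI3 kinase, fell from 17.8 and 21.1 CPM to 11.9 and 9.14 CPM in WT, and from 19.2 and 18.4 to 7.45 and 9.61 CPM in the cells labelled dKO, by 0.92 ± 0.18 and 1.15 ± 0.22 on the log2 scale, with adjusted p of 0.00722 and 0.0110. The list medians were 0.11 and 0.07. Leaving out a library ended some of these population calls. In WT, those of Tnf, Bcl2l1 and Cd80 were lost without replicate 1 of PD1+Tim3- (adjusted p 0.0812, 0.0692 and 0.0775) and without replicate 1 of PD1+Tim3+ (0.0525, 0.0519 and 0.0881), that of Cd80 without replicate 2 of PD1+Tim3- (0.0584), and that of Pik3ip1 without replicate 2 of PD1+Tim3+ (0.113). In the cells labelled dKO, those of Bcl2l1, Pik3ip1, Tnfsf4 and Tnf were lost without replicate 1 of PD1+Tim3- (0.207, 0.117, 0.071 and 0.162) and without replicate 2 (0.0679, 0.0503, 0.0576 and 0.119), and that of Cd80 without replicate 1 (0.192). That of Tnf was also lost without replicate 1 or 2 of WT PD1+Tim3+ and replicate 1 of labelled dKO PD1+Tim3+ (0.0563, 0.0558 and 0.0729) and by DESeq2 (0.153), as was that of Bcl2l1 (0.116).

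The patterns of the receptors over the 8 libraries were compared by Pearson's r of log2 CPM, given as a description because the libraries fall into 4 groups and share their scaling. Among the receptors, r was highest between Tnfrsf9 and Tnfrsf1a at 0.948, followed by Tnfrsf18 and Cd226 at 0.939 and Icos and Cd226 at 0.931. The neighbours Tnfrsf4 and Tnfrsf18 had r = 0.842, and the lowest value was -0.547, between Tnfrsf4 and Fas. Over all tested genes, Gm39972 (r = 0.989) and Ctla4 (0.985) were most like Tnfrsf9, Maff (0.983) and Isg20 (0.966) were most like Tnfrsf4, and Icam1 (0.986) and Mfsd10 (0.985) were most like Cd226. Irf8 (0.976) and Erdr1 (0.966) were most like Tnfrsf1a, Acap2 (0.982) and Serpina3g (0.979) most like Tnfrsf1b, and Psmf1 (0.976) and Psma5 (0.969) most like Tnfrsf18. For Cd27 they were Tusc2 (0.986) and Suox (0.962), for Icos Lrrfip1 (0.982) and Pik3r5 (0.978), and for Cd28 Phkg2 (0.953) and Uhrf1bp1 (0.947). Fas had the lowest best likeness of the 10, with Cyp4x1 (0.939) and Oas1g (0.918).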

How the data were processed

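The authors deposited raw gene counts of all 8 libraries in 1 table, by gene symbol. The submitters' processing notes name cutadapt 1.18, Bowtie2 2.2.5 and build mm10. The counting tool, annotation, strand setting and library preparation: not given in the sources used here. A name given to the deposited counts may refer to reads from the starts of transcripts. Columns that name PD1 without Tim3 were read as PD1+Tim3-, since other columns name both. A row without a name equals 100% of the gene total of each library and was left out. No columns of other samples were present (0).

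Counts were fitted with edgeR 4.0.16 in R 4.3.3 (limma 3.58.1; quasi-likelihood, TMM factors of 0.9011 to 1.075, default low-count filter, 4 group means, 4 residual degrees of freedom). A call is a Benjamini-Hochberg adjusted p under 0.05 over 13073 genes. The procedure was tested on simulated data. Fold change errors are standard errors derived from each fold change and its quasi-likelihood F statistic. Error intervals are at 95% and use the total degrees of freedom, which include those shared across genes (median 11.1 over the receptors). The receptors and lists were chosen with earlier results of these data known. All 10 receptors are named; from the 5 lists, genes called in a comparison, at most the 6 with the smallest adjusted p in each, and the 2 genes most like each receptor. Log2 CPM used a prior count of 2, and positions and exon lengths are from GENCODE on GRCm38 (92% of tested genes matched). Libraries within a group differed beyond counting noise (chi-square per gene 3.38 to 18), and none was a duplicate. Per the labels' protocols a sample is 1 implanted mouse's sorted cells, and how mice pair across groups is not stated. Alternatives were DESeq2 1.42.0, limma-voom, other scalings and filters, a replicate block and leaving out each library.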

Additional observations from a re-analysis of the deposited data

How the results depend on the processing

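Of 817 fold changes of the 10 receptors under 17 alternatives, 772 kept their direction and their side of the threshold, 28 lost the call, 3 gained it and 14 turned. The number of receptors called between genotypes rose from 0 to 1 in PD1+Tim3- and from 1 to 2 in PD1+Tim3+ without the low-count filter, with Tnfrsf4 added in each, and fell to 0 in PD1+Tim3+ when the fit held the 4 libraries compared. Without that filter the genes called in all rose as well, from 6 to 232 in PD1+Tim3- and from 82 to 486 in PD1+Tim3+. DESeq2 called 3 of the 5 in WT, Cd226, Tnfrsf18 and Tnfrsf1b, and 0 in the cells labelled dKO. With each library left out in turn the number called ran from 0 to 1 between genotypes in PD1+Tim3+, from 0 to 5 between populations in WT and from 0 to 2 in the cells labelled dKO. The cause was not tested.

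The labels give the groups the same replicate numbers but state no pairing, so the numbers were not taken as one. Samples with the same number did not deviate together (correlations of deviations from the group means of -0.181 to 0.0231 over the 6 pairs of groups). These values cover all tested genes, also those with few counts whose noise lowers them, so they do not exclude a pairing. With a replicate block the receptors called between genotypes in PD1+Tim3+ went from 1 to 0 (Tnfrsf9, adjusted p = 0.0971), and the genes called in all went from 82 to 40 there, from 6 to 0 in PD1+Tim3- and from 1298 to 716 between populations labelled dKO. The calls of Tnf between genotypes in PD1+Tim3+ (0.0612), of Tnfrsf25 (0.0614), Nfkbia (0.0622), Siva1 (0.0525) and Tradd (0.0825) in WT, and of Tnf (0.0548) and Nfkbia (0.0583) between populations labelled dKO were lost under it too. With a replicate block by genotype and number, fitted for the population comparisons, 4 receptors were called in WT, where Tnfrsf9 was lost (0.0707), and 1 in the cells labelled dKO. It also ended the WT calls of Nfkbia (0.0848), Tnfrsf25 (0.0814) and Tradd (0.0968) and the labelled dKO calls of Tnf (0.0547) and Nfkbia (0.0709).

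Offsets for transcript length turned the fold changes of Cd27 (-0.034) and Fas (-0.082) between populations in WT and the interactions of Icos (0.0072) and Btla (0.0083). Leaving out a library turned others, which were near 0. Between genotypes in PD1+Tim3- the ranges were -0.15 to 0.017 for Cd27, -0.14 to 0.056 for Fas and -0.15 to 0.087 for Pik3ip1, and in PD1+Tim3+ they were -0.052 to 0.33 for Tnfrsf18, -0.014 to 0.088 for Icos and -0.20 to 0.27 for Btla. Between populations they were -0.060 to 0.23 for Fas in WT and -0.15 to 0.068 for Cd28 in the cells labelled dKO, and for the interaction -0.17 to 0.054 for Tnfrsf1b, -0.11 to 0.0086 for Icos, -0.17 to 0.046 for Cd28, -0.30 to 0.17 for Btla and -0.29 to 0.012 for Tigit.

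Genes called in all ranged over the alternatives from 0 to 232 (6 as reported) between genotypes in PD1+Tim3-, from 6 to 486 (82) in PD1+Tim3+, from 433 to 2773 (2223) and from 132 to 1764 (1298) between populations in WT and in the cells labelled dKO, and from 0 to 331 (0) for the interaction. Without replicate 1 of labelled dKO PD1+Tim3+ 413 genes were called between genotypes in PD1+Tim3+ and 323 for the interaction. DESeq2 called 1314 between populations in WT. With 2 libraries a group and 1944999 counts in the shallowest, differences of the size seen for Tnfrsf1a and Fas (33 and 43 counts there) are poorly resolved.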

Other observations

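Several genes of the receptor and ligand families fell below the low-count filter and entered no comparison. Among the TNF receptors, Tnfrsf8, which encodes CD30, had at most 8 counts and Ngfr at most 3 in any library, Edar and Eda2r had at most 2, Ltbr, Cd40 and Tnfrsf19 had at most 1, and Tnfrsf17 was at 0 in all 8. Cd70, the ligand of CD27, had at most 7 counts, with its highest level, 0.554 CPM, in replicate 2 of labelled dKO PD1+Tim3+. Nectin2, a ligand of CD226, had at most 1 count.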
